A study of Rattus norvegicus with 125 samples.

Results

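The genes Ccnd1, Mycn, Id2, Fgf9, Sema6d, Fam167a and Rhobtb1 form a set of 7 of the 13439 genes measured. They were chosen on their PH3 and Air values in rat heart 3 h after phosphine exposure, as growth genes that were lower there. Every value of that contrast is therefore a description with no test. The direction named in the label fitted 6 of the 7 genes. Rhobtb1 ran the other way and was higher in PH3 heart at 3 h.

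The series holds 125 Affymetrix arrays from 48 adult male Sprague-Dawley rats of no stated genetic change. The PH3 rats breathed phosphine (PH3), a fumigant gas known to inhibit mitochondrial respiration, at 387 ppm for 40 min in a whole-body chamber, a product of 15480 ppm×min, and the Air rats breathed air alone. Heart gave 29 arrays from 29 rats: 4 PH3 and 4 Air rats at 1, 3 and 6 h after exposure, and 3 PH3 and 2 Air rats at 24 h. Brain and kidney gave 32 arrays each at the same times, lung 21 at 3 h, 24 h and 1 week, and liver 11 at 3 and 6 h. RNA came from pulverised whole tissue, so fewer cells of a type and less RNA per cell cannot be told apart. The heart, brain and kidney samples of 3 h came from the same 8 rats. Levels below are log2 signals of 1 probe set per gene, each array being 1 rat, and differences are PH3 minus Air on the log2 scale ± the standard error of a limma fit over all arrays of the tissue.

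The drive from growth signal to cell division runs through secreted ligands, their receptors, and transcription factors that switch on cell cycle genes. Cyclin D1, the product of Ccnd1, pairs with the kinases CDK4 and CDK6 and lets a cell leave G1. Adult heart muscle cells rarely divide, and in the heart these genes also act in fibroblasts, vessels and development. MYC-family factors such as N-MYC raise ribosome building and metabolism, and ID proteins block basic helix-loop-helix factors by binding them without binding DNA.

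RefSeq promoters on GRCr8 were available for 4 of the 7 genes and are shown because Id2, Fgf9 and Sema6d were lower together in heart at 3 h while Rhobtb1 was higher. Each line holds the 150 bases before the annotated start site, 5′ to 3′ in the direction of the gene. Capitals mark exact matches on either strand to 1 of 13 motifs. The windows are chr6:47470996-47471145 on the minus strand, chr15:36327208-36327357 on the plus strand, chr3:132337206-132337355 on the plus strand and chr20:19402058-19402207 on the minus strand.
Id2: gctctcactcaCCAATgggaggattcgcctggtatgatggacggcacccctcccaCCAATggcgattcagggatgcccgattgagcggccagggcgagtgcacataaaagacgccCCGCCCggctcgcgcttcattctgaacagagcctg
Fgf9: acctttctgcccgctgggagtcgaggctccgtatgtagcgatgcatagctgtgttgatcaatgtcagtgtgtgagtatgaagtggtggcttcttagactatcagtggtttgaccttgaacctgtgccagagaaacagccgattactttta
Sema6d: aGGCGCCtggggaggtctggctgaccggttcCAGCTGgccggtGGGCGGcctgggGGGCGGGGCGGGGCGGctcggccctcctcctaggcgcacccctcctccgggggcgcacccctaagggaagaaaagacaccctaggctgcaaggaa
Rhobtb1: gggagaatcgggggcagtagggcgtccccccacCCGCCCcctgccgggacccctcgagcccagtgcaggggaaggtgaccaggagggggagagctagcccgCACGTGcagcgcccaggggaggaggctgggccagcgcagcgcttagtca

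The motifs were searched in all 250 bases before the start site, and no motif was found in all 4 genes. The CCAAT box (CCAAT), present in 34% of 33469 promoters, had 3 matches in Id2, at 178, 139 and 95 bases before the start. The GC box (GGGCGG), present in 30.5% of promoters, had 4 partly overlapping matches in Sema6d and 1 each in Id2 and Rhobtb1. The E-box CAGCTG, in 12% of promoters, matched Id2 at 215 bases and Sema6d at 246 and 119 bases before the start. The E-box CACGTG, the classic site of MYC with MAX and in 5.59% of promoters, matched Rhobtb1 alone among the 4, at 49 bases. The BMP-SMAD site GGCGCC, in 8.69% of promoters, matched Sema6d at 149 bases.

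The other 8 motifs had 0 matches in the 4 windows. These were TATAAA (12.9% of promoters), the AP-1 site TGANTCA (6.34%), the cAMP response core TGACG (18.2%), the forkhead site GTAAACA (3.21%), the glucocorticoid receptor core AGAACA (17.5%), the E2F sites TTTCCCGC (0.813%) and TTTGGCGC (0.412%), and the TCF site CTTTGAT (3.15%). Fgf9 held no match to any of the 13 motifs. Its window was 46% G and C, against 62.8% in Id2, 67.2% in Rhobtb1, 70.4% in Sema6d and a median of 51.2% over all promoters. A match describes letters in the window and is not a measured binding site.

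The 3 nuclear regulators were all lower in PH3 heart at 3 h. Ccnd1, the G1 cyclin, read 9.63, 9.71, 9.92 and 9.93 in the Air rats and 8.70, 8.78, 9.02 and 9.31 in the PH3 rats. All 4 PH3 rats lay below all 4 Air rats. The difference was -0.85 ± 0.14, a signal 1.80-fold lower. Ccnd1 has 2 further probe sets on the array, and both were lower without overlap, by -0.99 and -0.72.

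Mycn, the gene of N-MYC, read 4.76, 4.86, 4.86 and 6.22 in Air and 3.27, 3.40, 3.83 and 4.35 in PH3. The groups did not overlap, and Air rat 108 stood well above the other 3 Air rats. The difference was -1.46 ± 0.30, and it was -1.11 without Air rat 108. The Air mean of Mycn, 5.17, lay within the range of the heart array medians, 5.08 to 5.27, but Mycn was dim in PH3. Its PH3 mean of 3.71 lay below the 25th percentile of all probe sets, which ran from 3.88 to 4.01 over the heart arrays, so no fold is given.

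Id2, an inhibitor of helix-loop-helix factors, read 8.17, 8.36, 8.43 and 8.63 in Air and 7.07, 7.14, 7.20 and 8.03 in PH3. PH3 rat 152 lay close to the Air rats, and the other 3 PH3 rats lay together further down. The difference was -1.03 ± 0.22 (2.05-fold lower), and -1.26 without rat 152.

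The secreted and membrane ligands were lower too. Fgf9, a secreted fibroblast growth factor, read 6.75, 7.25, 7.38 and 7.54 in Air and 5.62, 5.65, 5.97 and 6.09 in PH3. The ranges were apart, with a difference of -1.40 ± 0.24 (2.63-fold lower). A second, dimmer Fgf9 probe set differed by -0.53, with PH3 rats from 3.90 to 5.66 overlapping Air rats from 5.08 to 5.64.

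Sema6d, a membrane-bound semaphorin that signals through plexins and takes part in heart development, read 8.61, 8.78, 8.92 and 8.94 in Air and 8.05, 8.16, 8.20 and 8.24 in PH3. Its difference of -0.65 ± 0.11 (1.57-fold lower) was the smallest of the 7, and its PH3 rats were the closest together (SD 0.083). Fam167a, a gene whose function is little known, read 4.94, 5.06, 5.13 and 5.42 in Air and 3.93, 4.09, 4.20 and 4.31 in PH3. Its groups did not overlap and differed by -1.002 ± 0.15. The PH3 mean of 4.13 lay near the 25th percentile of all probe sets, 3.88 to 4.01 over the heart arrays, so no fold is given.

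Rhobtb1 encodes an adaptor that hands substrates to the ubiquitin ligase cullin 3. It read 8.08, 8.42, 8.44 and 8.58 in Air and 9.26, 9.30, 9.72 and 9.82 in PH3. All PH3 rats lay above all Air rats, by 1.15 ± 0.18 (2.22-fold higher). It ranked 15th from the top of all genes.

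Over all 13439 genes, PH3 and Air ranges did not overlap at 3 h for 5.92%, and 0.238% passed an adjusted p of 0.05 (0.171% lower and 0.067% higher). Since the 7 genes were chosen on this contrast, their own count of 7 without overlap is not to be read against these shares. Of all genes, 56.9% were below 0, with a median of -0.03.

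**Figure D1:**
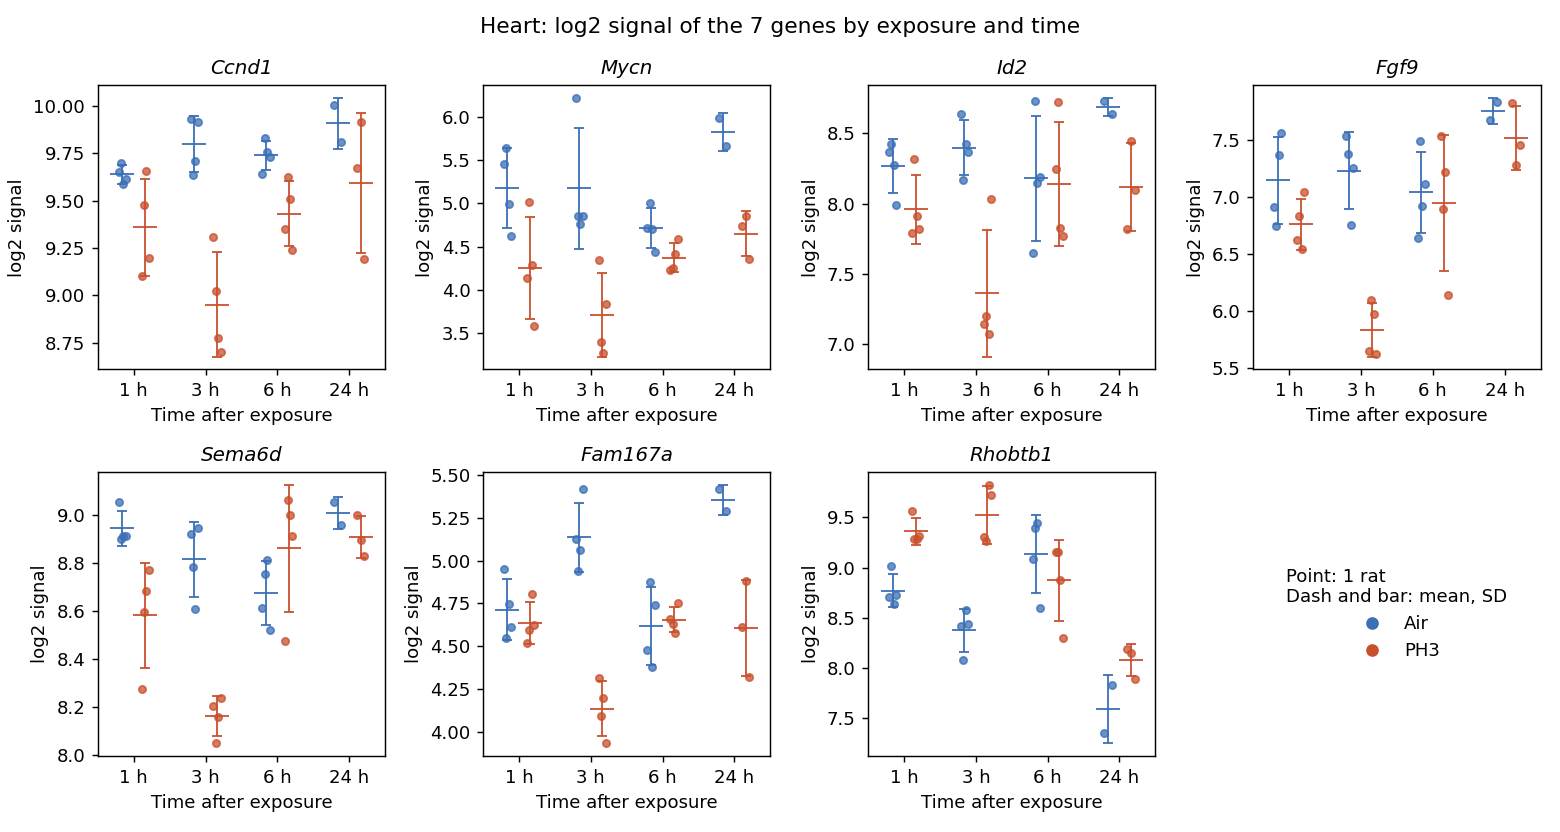
The log2 signal of each gene is plotted for every heart array against time after exposure, with a dash for the mean, a bar for the SD and a separate scale for each gene. At 3 h the PH3 points of Ccnd1, Mycn, Id2, Fgf9, Sema6d and Fam167a sit below all Air points of that time, and those of Rhobtb1 sit above.

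The Air rats of 3 h also entered the choice, so the PH3 rats of 3 h were set beside the 10 Air hearts of 1, 6 and 24 h, again as a description. For Ccnd1, Mycn, Fgf9, Sema6d and Fam167a, all 4 PH3 rats lay below all 10 of those Air rats. The mean differences were -0.78 for Ccnd1, -1.41 for Mycn, -1.39 for Fgf9, -0.69 for Sema6d and -0.67 for Fam167a. For Id2 it was -0.95, with 3 of 4 rats below. For Fgf9, Sema6d and Fam167a the PH3 rats of 3 h were also below the 11 PH3 hearts of other times.

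The Air rats of 3 h themselves stood 0.33 above the other Air hearts for Fam167a and 0.30 below them for Rhobtb1. Rhobtb1 in PH3 at 3 h exceeded the other Air hearts by 0.85 on average, and 2 of 4 rats were above all of them.

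The other heart times came from other rats and were tested. At 1 h, 0 of the 7 genes passed an adjusted p of 0.05 in limma, where 0.0521% of all genes did. An unadjusted p under 0.05 was found for 3 of the 7, against 8.07% of all genes. Mycn read 4.62, 4.99, 5.46 and 5.64 in Air and 3.58, 4.14, 4.28 and 5.02 in PH3. PH3 rat 115 lay among the Air rats and the other 3 lay below them. The difference was -0.92 ± 0.30 (limma unadjusted p = 0.00417).

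Sema6d at 1 h read 8.90, 8.91, 8.91 and 9.05 in Air and 8.27, 8.60, 8.68 and 8.77 in PH3. These ranges did not overlap, which held for 4.24% of all genes, and the difference was -0.36 ± 0.11 (limma unadjusted p = 0.00367). Rhobtb1 already stood apart at 1 h, with 8.64, 8.71, 8.73 and 9.02 in Air and 9.28, 9.29, 9.32 and 9.56 in PH3. Its difference of 0.59 ± 0.18 did not pass (limma unadjusted p = 0.00297). For the remaining 4 genes, the 1 h differences ran from -0.39 for Fgf9 to -0.08 for Fam167a, with overlap.

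At 6 h, when 2.7% of all genes passed (1.29% lower and 1.41% higher), 0 of the 7 genes passed in limma. An unadjusted p under 0.05 was found for 1 of the 7 and for 15.1% of all genes. Among the 7 that gene was Ccnd1, at 9.64, 9.73, 9.76 and 9.83 in Air and 9.24, 9.35, 9.51 and 9.62 in PH3. The groups lay just apart, as did those of 10.5% of all genes, and differed by -0.31 ± 0.14 (95% interval -0.59 to -0.03). Id2 differed by -0.04 (95% interval -0.49 to 0.41), with Air rats from 7.65 to 8.73 and PH3 rats from 7.77 to 8.72. Fam167a differed by 0.04 (95% interval -0.27 to 0.34), Fgf9 by -0.09 (-0.59 to 0.40), Sema6d by 0.19 (-0.05 to 0.42), Mycn by -0.34 (-0.95 to 0.26) and Rhobtb1 by -0.26 (-0.63 to 0.11). For Fgf9, the lowest PH3 rat at 6 h was rat 141 at 6.14, the array that correlated least with its heart group (r = 0.974).

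At 24 h, with 2 Air and 3 PH3 rats, 0 of the 7 and 0% of all genes passed in limma. An unadjusted p under 0.05 was found for 3 of the 7 and for 405 of all 13439 genes. Mycn read 5.67 and 5.98 in Air and 4.36, 4.74 and 4.85 in PH3, a difference of -1.18 ± 0.38 (limma unadjusted p = 0.00460). Fam167a read 5.29 and 5.42 in Air and 4.32, 4.61 and 4.88 in PH3, a difference of -0.75 ± 0.19 (limma unadjusted p = 4.982e-04). Its PH3 mean of 4.61 was close to the Air heart means of 4.71 at 1 h and 4.62 at 6 h. Rhobtb1 was at 7.35 and 7.83 in Air and at 7.90, 8.15 and 8.19 in PH3, a difference of 0.49 ± 0.23. That difference was 0.24 without Air rat 145 and 0.73 without Air rat 84. Id2 also lay apart, by -0.57 ± 0.28. With so few rats, 21.4% of all genes did not overlap at this time.

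Whether the exposure effect differed between 1, 6 and 24 h in heart was asked with an F test. It passed for 0 of the 7 genes in limma and for 0.164% of all genes. The smallest limma adjusted p-values of the 7 were 0.370 for Rhobtb1, 0.410 for Fam167a and 0.413 for Sema6d.

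Without gas, 1 of the 7 genes varied between 1, 6 and 24 h. An F test over the Air hearts passed for Rhobtb1 (limma adjusted p = 0.00362) and for 0.0372% of all genes. Rhobtb1 in Air stood at 8.77 ± 0.17 (SD, n = 4) at 1 h, 9.13 ± 0.39 (n = 4) at 6 h and 7.59 ± 0.34 (n = 2) at 24 h. Both Air rats of 24 h lay below every other Air heart. The call depended on 24 h Air rat 145, since the limma adjusted p was 0.711 without it, against 6.260e-06 to 0.0299 under the 8 alternatives that kept every rat. The Air differences of Mycn and Fam167a between 24 h and 1 h were 0.65 and 0.64 and did not pass.

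Outside heart at 3 h, 0 of 105 tests of the 7 genes in 15 comparisons passed in limma, and 22 had an unadjusted p under 0.05. That is 21.0% of their tests, against 7.18% over all genes, and Mycn alone gave 6 of the 22. The tests share rats across tissues, and the heart tests used a spread estimated over all heart arrays, those of 3 h included. These shares are therefore descriptions. The smallest adjusted p was 0.132. In brain, 0 of the 7 passed at any time. The shares of all genes that passed there were 0.00744% at 1 h, 0.00744% at 3 h, 0.00744% at 6 h and 0.0298% at 24 h. The 7 genes had 1, 1, 0 and 3 unadjusted p under 0.05 at these times, and all 13439 genes had 698, 542, 432 and 1639. In kidney, again 0 of the 7 passed, where 0.223% of all genes did at 1 h, 0.104% at 3 h, 0.126% at 6 h and 0.0149% at 24 h. Their unadjusted p was under 0.05 once at 1 h, for Fam167a, and once at 24 h, for Rhobtb1. Of all 13439 genes, 1340 had such a p at 1 h and 318 at 24 h.

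**Figure D2:**
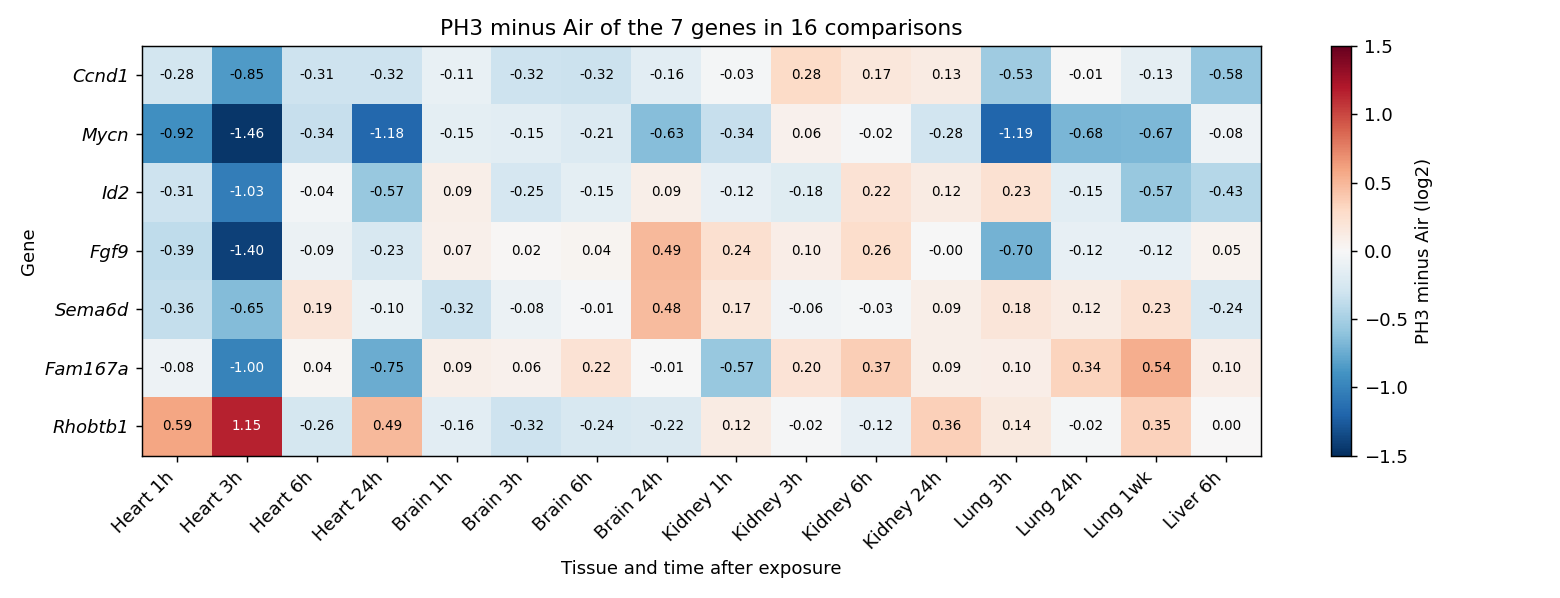
Colour and printed value give PH3 minus Air on the log2 scale for the 7 genes (rows) in the 16 comparisons by tissue and time (columns). The column of heart at 3 h, on which the genes were chosen, runs from -1.46 for Mycn to 1.15 for Rhobtb1. In the other columns the values run from -1.19 for Mycn in lung at 3 h to 0.59 for Rhobtb1 in heart at 1 h.

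The 3 h brain and kidney samples came from the rats whose hearts were compared. In brain the 3 h differences ran from -0.32 for Ccnd1 and Rhobtb1 to 0.06 for Fam167a, and in kidney from -0.18 for Id2 to 0.28 for Ccnd1. Mycn, so low in heart, differed by -0.15 in brain and 0.06 in kidney at 3 h. None of these differences passed.

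In lung at 3 h, 3 of the genes lay apart between PH3 and Air. Mycn read 5.40 and 5.53 in the 2 Air lungs and ran from 3.99 to 4.51 in the 4 PH3 lungs, a difference of -1.19 ± 0.36. Fgf9 read 4.85 and 5.12 in Air and 4.24 to 4.30 in PH3, a difference of -0.70 ± 0.20. Fgf9 was dim in lung, below the array medians of 5.32 to 5.49 in both groups. The 25th percentile of all probe sets ran from 3.79 to 3.90 over the lung arrays. Ccnd1 read 11.29 and 11.38 in Air and 10.47 to 11.05 in PH3, a difference of -0.53 ± 0.16.

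All PH3 lungs lay below both Air lungs for these 3 genes, yet with 2 Air rats 41.3% of all genes did not overlap. Their adjusted p in limma ran from 0.175 to 0.195, when 0.298% of all genes passed. Sema6d, Fam167a, Rhobtb1 and Id2 in lung at 3 h differed by 0.10 to 0.23 with overlap. Air rat 150 and PH3 rat 152 gave both a lung and a heart array at 3 h. With only the arrays of lung at 3 h fitted, Mycn (limma adjusted p = 0.0249) and Fgf9 (0.0397) passed. With array weights, Mycn, Fgf9 and Ccnd1 passed (limma adjusted p from 0.00297 to 0.00522).

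In lung at 24 h and 1 week, 0 of the 7 and 0% of all genes passed. Mycn differed by -0.68 ± 0.29 at 24 h and -0.67 ± 0.32 at 1 week, with overlap. The unadjusted p was under 0.05 for 1 of the 7 at 24 h and for 3 at 1 week, against 190 and 285 of all 13439 genes. At 1 week Id2 differed by -0.57 ± 0.25 and Fam167a by 0.54 ± 0.23.

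In liver at 6 h, 0.238% of all genes and 0 of the 7 passed. Ccnd1 differed there by -0.58 ± 0.22 with overlap (limma unadjusted p = 0.0181). In liver, Fgf9 was read by its other probe set, which was the brighter one there.

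Brain at 24 h held the smallest adjusted p of the set outside heart. Sema6d read 9.45, 9.56, 9.85 and 9.88 in Air and 10.03, 10.11, 10.15 and 10.37 in PH3. The ranges did not overlap, which held for 2.55% of all genes, and the difference was 0.48 ± 0.11, in the direction opposite to heart at 3 h (limma adjusted p = 0.132). Sema6d passed when Air rat 83, Air rat 84 or PH3 rat 85 was left out (limma adjusted p from 0.0330 to 0.0480). Fgf9, at 0.49 ± 0.16 with overlap, passed without Air rat 83 (limma adjusted p = 0.0379). The share of all genes that passed with these rats left out was not counted. Rhobtb1 also lay apart there, at 4.40 to 4.48 in PH3 and 4.53 to 4.88 in Air, and its difference of -0.22 ± 0.12 did not pass.

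By sign alone, Mycn was the steadiest of the 7. It was lower in PH3 in 14 of the 15 other comparisons, which held for 0.536% of all genes, and it had an unadjusted p under 0.05 in 6 of them. Mycn was dim in kidney and liver, with Air means of 3.99 and 3.57. The 25th percentile of all probe sets ran from 3.80 to 3.98 in kidney and from 3.89 to 3.99 in liver. Signs of Mycn there are of values near the floor, with differences such as -0.02 in kidney and -0.08 in liver at 6 h. Ccnd1 was lower in 12 of 15, as were 5.55% of genes or more often so. Id2 was lower in 10, Sema6d and Rhobtb1 in 8, Fgf9 in 7 and Fam167a in 4. The comparisons share rats across tissues, so these counts are not of independent animals.

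Whether the effect in heart differed from that in kidney or brain was tested at 1, 6 and 24 h, times the choice did not use. In the 6 tests, 0 of the 7 genes passed in limma. Against kidney, 3 of the 7 had an unadjusted p under 0.05 at 1 h, 1 at 6 h and 3 at 24 h, and 0.201%, 0.99% and 0.00744% of all genes passed. Against brain, 2, 0 and 4 had such a p, and 0.00744%, 0.588% and 0% of all genes passed. How many of all genes had such an unadjusted p in these tests was not counted. The smallest unadjusted p of the 7 was for Rhobtb1 at 1 h, whose effect was 0.75 ± 0.21 higher in heart than in brain (limma unadjusted p = 7.531e-04, adjusted p = 0.469). The heart effect minus the kidney effect was -0.53 ± 0.20 for Sema6d at 1 h (limma adjusted p = 0.349), -0.84 ± 0.32 for Fam167a at 24 h (limma unadjusted p = 0.0108) and -0.47 ± 0.23 for Ccnd1 at 6 h (limma adjusted p = 0.426). At 3 h no such test was made, since heart at 3 h chose the genes.

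Among Air rats the 7 genes had different tissue orders. Ccnd1 was highest in lung, at 11.33 ± 0.17 (SD, n = 10), and kidney, at 11.12 ± 0.23 (n = 16), which overlapped. Liver (9.92 ± 0.45, n = 4) and heart (9.75 ± 0.13, n = 14) overlapped below them, and brain was lowest at 7.99 ± 0.24 (n = 16). Id2 was highest in kidney (10.67 ± 0.26) and lowest in heart (8.34 ± 0.30), both without overlap with their neighbours, while liver, brain and lung overlapped between 9.70 and 9.83.

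Fgf9 was highest in kidney (9.32 ± 0.17) and brain (9.06 ± 0.25), which overlapped. Heart stood apart at 7.23 ± 0.38, above lung at 4.72 ± 0.24. Sema6d was highest in brain (9.87 ± 0.22) and lung (9.85 ± 0.15), then heart (8.84 ± 0.17) and kidney (8.82 ± 0.26), with liver lowest at 7.66 ± 0.32. The members of each pair overlapped.

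Fam167a stood apart in lung (7.87 ± 0.36), and its other tissues overlapped in order from heart (4.90 ± 0.34) to brain (3.80 ± 0.21). Rhobtb1 was highest in kidney (8.84 ± 0.18) and heart (8.59 ± 0.57), which overlapped, and lowest in brain (4.52 ± 0.19). Mycn lay between 5.14 and 5.22 on average in lung, brain and heart, lower in kidney (3.99 ± 0.31) and lowest in liver (3.57 ± 0.22), with every neighbour overlapping.

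**Figure D3:**
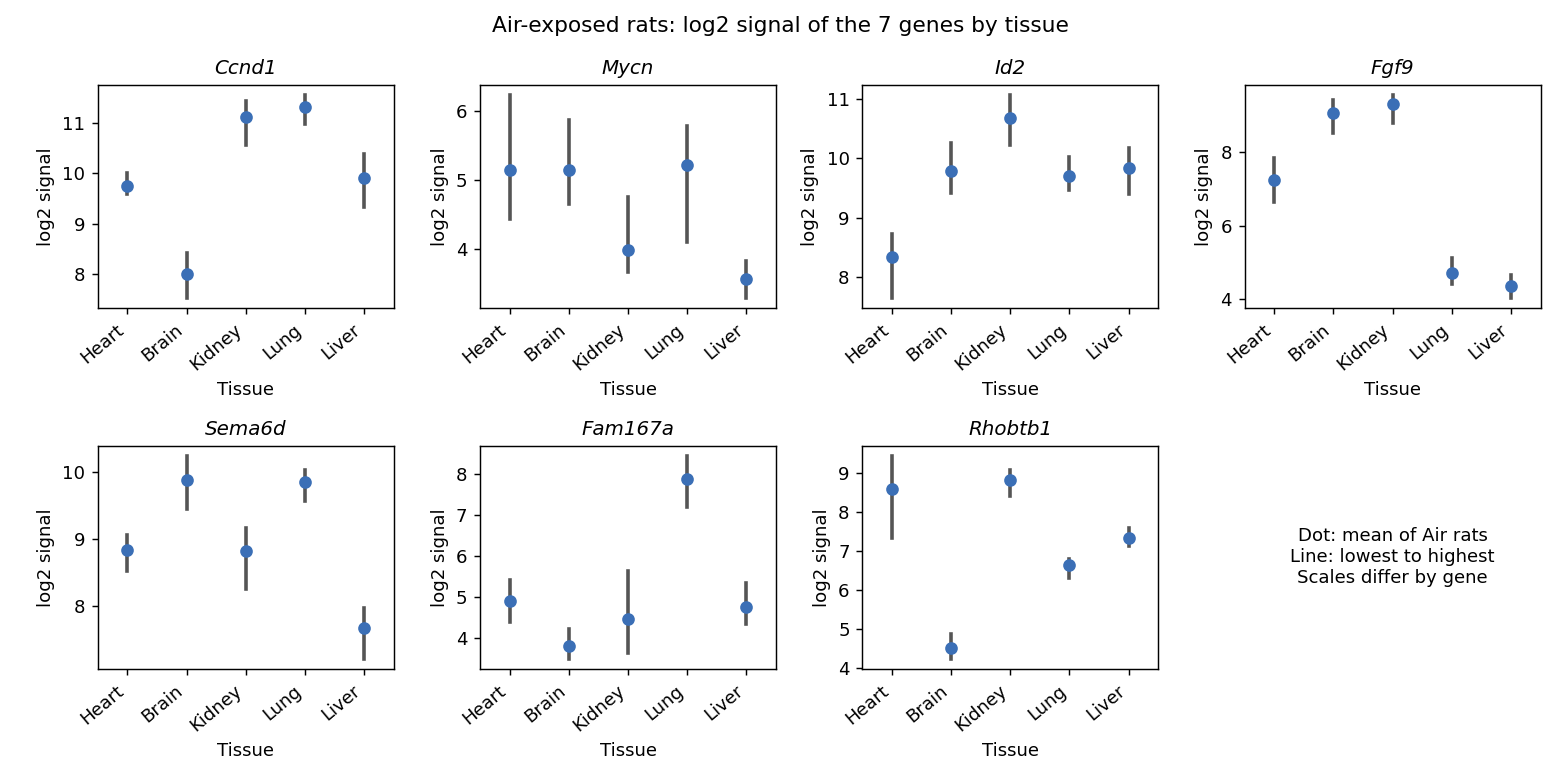
Each panel gives 1 gene, with a dot for the mean log2 signal of the Air rats and a line from the lowest to the highest rat in each tissue. Scales differ by panel and signals of different genes are not comparable, and the liver point of Fgf9 is from another probe set than its other points. Heart is the lowest tissue for Id2 (8.34), and lung is the highest for Fam167a (7.87).

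Genes of related pathways were taken from 12 lists, which hold 255 genes besides the 7, with 226 measured. The list of FOXO and glucocorticoid targets in muscle is not set beside any 1 of the 7 below. At 3 h in heart, 3 of the 226 passed in limma (1.33%, against 0.238% of all genes), and 40 had an unadjusted p under 0.05 (17.7%, against 12.8% of all genes). All 3 were higher and belonged to the list of FOXO and glucocorticoid targets in muscle, which also gave 11 of the 40. The lists were chosen with earlier results of these data known, so these shares are descriptions. Pdk4, a pyruvate dehydrogenase kinase, rose by 1.18 ± 0.16 from 10.73 ± 0.13 to 11.90 ± 0.40 (SD, n = 4 each, limma adjusted p = 0.00131). Fkbp5, a co-chaperone induced by glucocorticoids, rose by 1.40 ± 0.25 (limma adjusted p = 0.00851), and Sesn1, a stress-induced inhibitor of growth signalling, by 0.77 ± 0.13 (limma adjusted p = 0.00724).

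In that list 17 of 20 measured genes were above 0, with a median of 0.38 against -0.03 over all genes. The number of listed genes that passed at 3 h, 3 over all 12 lists, was 1 without PH3 rat 122 and 8 without PH3 rat 111.

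The lists nearest to each of the 7 held 0 genes that passed at 3 h in limma. For Ccnd1, the G1 cyclins with their kinases, inhibitors and pocket proteins had 14 of 18 below 0 and a median of -0.13, with 2 unadjusted p under 0.05. The DNA replication and mitosis genes had 12 of 26 below 0 and a median of 0.04, also with 2. For Mycn, the MYC and MAX network had 9 of 9 above 0, from 0.05 to 0.53, with 2 unadjusted p under 0.05. The classic MYC targets had 17 of 21 below 0, a median of -0.04 and 2 such p-values.

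For Fgf9, the fibroblast growth factors and receptors had 12 of 22 below 0, a median of -0.01 and 5 unadjusted p under 0.05, 4 of them lower. The feedback genes of ERK signalling had 6 of 13 below 0, a median of 0.01 and 1 such p. For Sema6d, the semaphorins, plexins and neuropilins had 18 of 24 below 0, a median of -0.18 and 3 such p-values, all lower. For Rhobtb1, the list of cullin 3 partners had 10 of 16 below 0, a median of -0.02 and 3 such p-values, all lower.

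For Id2, the ID and helix-loop-helix genes had 10 of 15 below 0, a median of -0.21 and 4 such p-values, 3 of them lower. The BMP genes, which act upstream of ID genes, had 13 of 22 below 0, a median of -0.07 and 2 such p-values. The Wnt list, which mixes targets and regulators of the pathway, had 14 of 20 below 0, a median of -0.12 and 3 such p-values. The share below 0 over all genes was 56.9%.

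**Figure D4:**
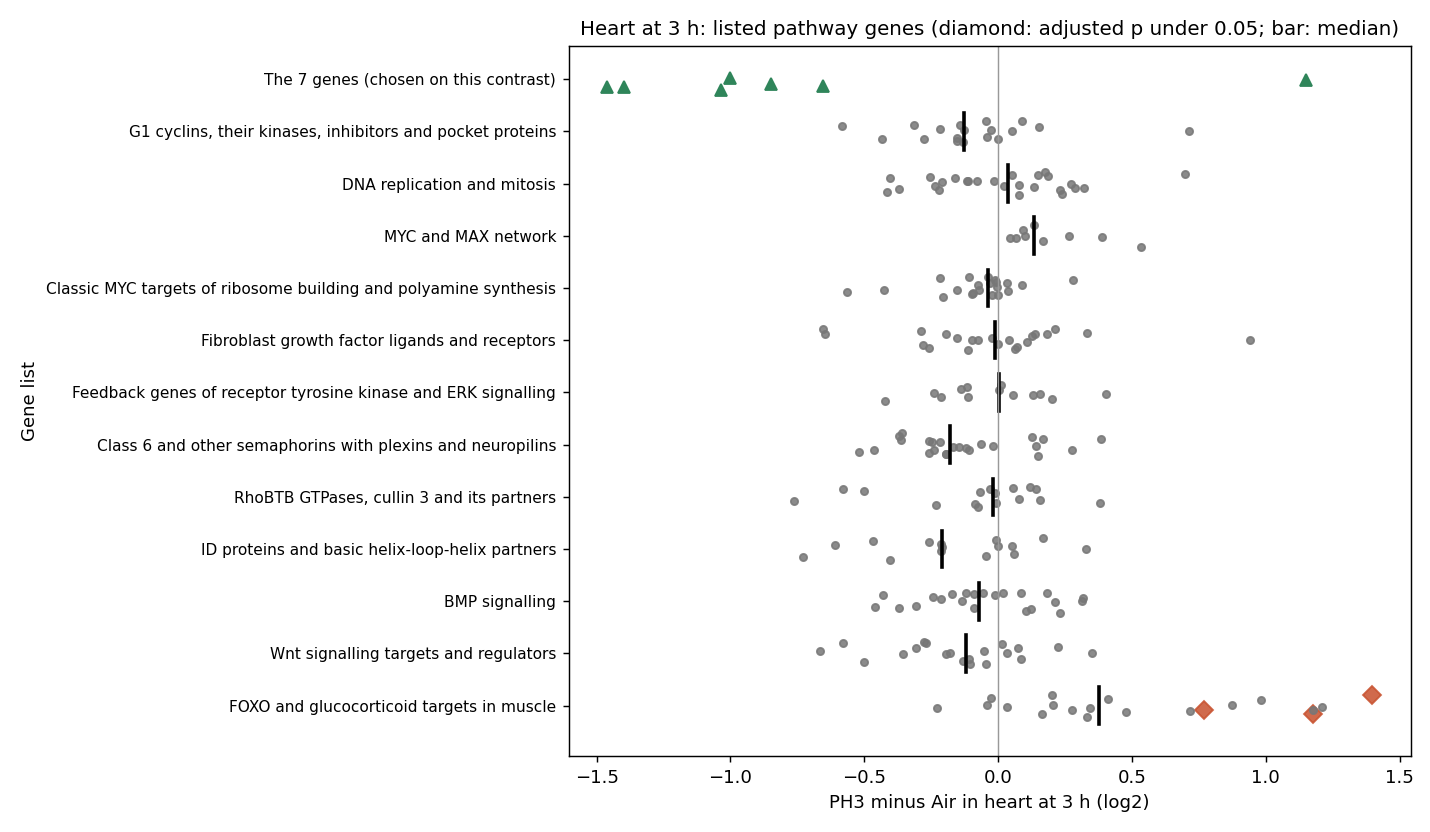
Each point is 1 gene, placed by PH3 minus Air in heart at 3 h on the log2 scale, in rows for the 12 pathway lists with a bar at the median, and diamonds mark genes with an adjusted p under 0.05. Triangles in the top row are the 7 genes, chosen on this contrast, from -1.46 to 1.15. The 3 diamonds, at 0.77, 1.18 and 1.40, all lie in the FOXO and glucocorticoid row.

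At 6 h, when the 7 genes had 0 calls, 9 of the 226 list genes passed in limma (3.98%, against 2.7% of all genes), 6 higher and 3 lower. Rrp12, a ribosome-building MYC target, rose by 1.57 ± 0.27 (limma adjusted p = 0.00104). E2f5, an E2F factor that acts with the pocket proteins, rose by 1.01 ± 0.23, Dusp5, a phosphatase that acts on ERK, by 1.08 ± 0.27, and Smad5, a mediator of BMP signals, by 0.85 ± 0.20 (limma adjusted p from 0.0166 to 0.0248). Klhl12, an adaptor of cullin 3, fell by 0.33 ± 0.09 (limma adjusted p = 0.0389). Pdk4 rose by 1.63 ± 0.16 and Mt2A, a metallothionein, by 2.67 ± 0.46. In the same list Trim63 and Pik3ip1, named after their values were seen, fell by 0.58 ± 0.11 and 1.08 ± 0.27.

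At 1 h, 3 of the 226 passed (1.33%, against 0.0521% of all genes), 2 of them in the list of FOXO and glucocorticoid targets. Pdk4 rose by 1.26 ± 0.16 and Fkbp5 by 1.94 ± 0.25 (limma adjusted p = 1.762e-04 for both). Id1, a close relative of Id2 named after its values were seen, rose by 0.55 ± 0.11 at 1 h (limma adjusted p = 0.0415), while Id2 differed by -0.31 ± 0.22.

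Marker genes of heart cell types were read beside the 7 genes at 3 h, and 0 passed in limma. The cardiomyocyte markers summed to 16.59 to 16.69 in Air and 16.59 to 16.71 in PH3, on the log2 scale. Fibroblast markers were below 0 in 12 of 12 genes, with a median of -0.20 and 4 unadjusted p under 0.05. Their sums were 14.77 to 14.83 in Air and 14.60 to 14.77 in PH3, apart by less than the rounding shown. Smooth muscle and pericyte markers were below 0 in 9 of 10 genes, with a median of -0.31 and sums of 11.89 to 12.23 in Air and 11.67 to 11.78 in PH3, without overlap. Endothelial markers had sums of 12.78 to 13.03 in Air and 12.77 to 13.03 in PH3. The sums of the 7 other marker lists (atrial muscle, endocardium, macrophage and leukocyte, adipocyte, Schwann cell and neuron, hepatocyte, red blood cell) overlapped between Air and PH3. Of these, the adipocyte list had the lowest median, -0.50, with 6 of 9 genes below 0 and sums of 13.07 to 14.17 in Air and 13.20 to 13.44 in PH3. The sum of 14.17 was that of Air rat 150, the highest of all hearts, whose median was 13.21. The adipocyte values of the Air group at 3 h thus lean on that rat. The part of fibroblast, smooth muscle and adipocyte markers in the lower values of the 6 genes was not tested.

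Within the heart groups, after subtracting each group's mean, 16 of the 21 pairs of the 7 genes correlated above 0, with a median r of 0.16 over 29 arrays. The pair Ccnd1 and Fam167a was highest, at r = 0.59, and Mycn with Fgf9 lowest, at r = -0.19. Arrays of a group share processing, and these r are descriptions.

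By the same measure, the genes most like each of the 7 over the 29 heart arrays were Marcksl1, Eva1b and Kdelr3 for Ccnd1 (r from 0.80 to 0.83) and St8sia5, Plvap and Mrtfa for Mycn (0.75 to 0.77). They were Dock6, Ogfod3 and Ccne2 for Id2 (0.72 to 0.75), Pdss2, Cenpp and Hes6 for Fgf9 (0.77 to 0.82), and Slc23a2, U2af2 and Hace1 for Sema6d (0.79). They were Tubb5, Chad and Pspc1 for Fam167a (0.71 to 0.73) and Nelfcd, Fbf1 and Klf3 for Rhobtb1 (0.72 to 0.78).

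Over the differences of the 16 comparisons, which include heart at 3 h, the most alike genes were others. They were Clcn2, Cyba and Ccdc159 for Ccnd1 (r from 0.83 to 0.84), Txndc11, Prdm1 and Rpl7l1 for Mycn (0.89 to 0.95), and Acox3, Ecrg4 and Car5b for Id2 (0.79 to 0.83). They were Aldh1a3, Tmem51 and Tbc1d9 for Fgf9 (0.88 to 0.91), Klhl4, Rpl34 and Rps3 for Sema6d (0.81 to 0.84), Pex6, Rem1 and Rfwd3 for Fam167a (0.84 to 0.88), and Pnliprp2, Pcdh20 and Gucy2d for Rhobtb1 (0.83 to 0.85). Each is the highest of 13439 genes and is a description with no test.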

How the data were processed

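Per the labels' protocols, RNA was labelled by a 3' in vitro transcription method and hybridised to Affymetrix rat arrays. Partek, RMA and the Affymetrix Expression Console appear, with no version, in the submitters' processing notes. The deposited values are log2 signals of 31139 probe sets on 125 arrays, running from 2.60 to 14.41. Whether RMA was run over all tissues together was not given in the sources used here. Precision here depends on how many rats a group holds.

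Probe sets with 1 gene symbol in the platform annotation (19069; 572 had several and 11498 none) were kept, and the brightest probe set in a tissue, by its mean there, stood for each of 13439 genes. Tissues were fitted apart in limma 3.58.1 (R 4.3.3) with a mean for every exposure and time, followed by eBayes with a trend. Benjamini-Hochberg adjustment ran over all genes in a comparison, and 0.05 was the threshold. There were 16 comparisons of PH3 with Air, and the tests were checked on made-up data with known changes. The 7 genes, the lists and the motifs were chosen with earlier results of these data known. Of each list, up to 4 genes that passed in heart at 3 or 6 h are named, smallest p first, and for each of the 7 genes the 3 most correlated ones.

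Rat numbers in the labels tie tissues of an animal together, and groups of 1 tissue hold separate rats. With the rat as a replicate block, the correlation within a rat over brain, heart and kidney was -0.00386 (93 arrays, 34 rats). The difference between heart and kidney then passed for 0 of the 7 genes, as without the block. Alternatives covered arrays fitted, array weights, the prior, a filter on dim genes, normalization, probe set choice and each rat left out. A comparison with the Air hearts of other times, and the tests between tissues other than heart and kidney at 6 h, were added after the data were seen. Python 3.11.15 and matplotlib 3.10.9 made the plots.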

Additional observations from a re-analysis of the deposited data

Results flagged for a closer look

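In 19 of 196 groups of 4 rats, 1 rat lay far enough from the other 3 to pass Dixon's 95% critical value, where about 1 group in 20, or 9.8, is expected by chance. In heart these were Air rat 108 at 3 h for Mycn (6.22), PH3 rat 152 at 3 h for Id2 (8.03), PH3 rat 109 at 1 h for Rhobtb1 (9.56) and Air rat 107 at 1 h for Sema6d (9.05). The first 2 touch the 3 h differences, which kept their sign without these rats.

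In brain they were PH3 rat 85 at 24 h for Ccnd1 (8.22), PH3 rat 109 at 1 h for Fgf9 (9.03) and for Sema6d (9.85), PH3 rat 105 at 3 h for Mycn (5.40), Air rat 156 at 6 h for Mycn (5.56) and PH3 rat 135 at 6 h for Rhobtb1 (4.31). In kidney, Rhobtb1 stood out in Air rat 168 at 1 h (8.61), Air rat 126 at 6 h (8.68) and Air rat 83 at 24 h (8.42). Further kidney values were Fgf9 in Air rat 168 at 1 h (8.79), Ccnd1 in Air rat 138 at 6 h (11.28), Id2 in PH3 rat 134 at 6 h (10.996) and Mycn in Air rat 120 at 3 h (3.72). Id2 stood out in the liver of PH3 rat 141 at 6 h (8.40) and Sema6d in the lung of Air rat 84 at 24 h (9.57).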

How the results depend on the processing

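Of 440 values recomputed under alternatives, 430 were scored as the same. An untested difference had to keep its sign and move by no more than 1 SD within the 3 h groups. Tested differences had to keep their sign and side of the threshold, a lone p-value its side, and counts had to stay within 1.5 times. Many of the 430 are counts that were 0 and stayed 0, among them most of the 96 counts outside heart with 1 rat left out. At 3 h in heart, the difference of each of the 7 genes kept its sign under every alternative that measured it. The median of the 7, -1.002, ran from -1.07 to -0.91 with 1 rat left out and was -0.78 against the Air hearts of other times. Mycn and Fam167a drop out where the dimmest genes of the tissue are left out. Calls outside heart went from 0 to 2 with only the arrays compared, to 3 with array weights, and from 0 to 2 with 1 rat left out. Calls over all genes outside heart were not counted under these alternatives. Genes varying between Air times went from 1 to 2 with array weights (Fam167a, limma adjusted p = 0.0287) and stayed at 1 or fell to 0 with 1 rat left out. Listed genes passing at 3 h, 3 in number, ran from 1 to 8 with 1 rat left out. The replicate block by rat changed 0 calls of the 7 genes between heart and kidney at 6 h. Leaving out 1 of 2 rats assumes that the other varies like the remaining groups. Groups of 2 to 4 rats limit all of these, and the number of genes passing at 3 h in heart ran from 6 without PH3 rat 122 to 85 without PH3 rat 105.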

Other observations

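The liver arrays of PH3 rats at 3 h have no Air arrays beside them and entered no comparison. They came from rats 105, 111 and 122, whose hearts were among those compared at 3 h. Ccnd1 read 10.11, 9.46 and 9.31 in these livers, Id2 read 9.72, 9.60 and 8.82, and Mycn read 3.75, 3.68 and 3.73. Rhobtb1 read 7.33, 7.05 and 7.03, and Sema6d read 7.61, 7.35 and 7.36.

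Mycn was 1 of 6 genes that were lower in PH3 with an unadjusted p under 0.05 in at least 6 of the 15 comparisons outside heart at 3 h. The others were Anxa4, Gbp2, Lmo2, Serpinh1 and Tmem218, named after their values were seen. Serpinh1, a collagen chaperone, was so in 7.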
